A study of Homo sapiens with 6 samples.

Results

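Mitophagy receptors and their close companions, 10 genes through which mitochondria are handed to autophagy, were followed in ovarian cancer cells given recombinant CRMP2 (r-CRMP2). The members were BNIP3, BNIP3L, FUNDC1, BCL2L13, FKBP8, PHB2, PINK1, OPTN, CALCOCO2 and SQSTM1, taken by their gene symbol, and all 10 were found among the 44591 genes listed for each library. RNA was sequenced from A2780, a human ovarian cancer cell line, with 3 untreated libraries and 3 libraries from cells given 40 ng/ml human recombinant CRMP2. Both groups were wild type, were collected at 48 h and were grown in the same serum-containing medium, and no vehicle is named for the untreated cells. CRMP2 is a cytosolic protein best known from axon growth, which the study had followed as a protein released by cancer-associated fibroblasts, and the sequencing asked which programmes of the tumor cells respond to it. A single cell line was used, and nothing in the labels says whether replicates were separate cultures, so that p-values measure the spread between these libraries, which may be technical.

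Mitophagy is the removal of mitochondria by autophagy. A receptor on or near the mitochondrion binds the LC3 and GABARAP proteins of the growing autophagosome membrane, which then closes around the organelle and fuses with lysosomes. Contact is made by either of a pair of routes. In the direct one, BNIP3, BNIP3L (NIX), FUNDC1, BCL2L13 and FKBP8 sit in the outer mitochondrial membrane and bind LC3 or GABARAP directly, and PHB2 does so from the inner membrane once the outer one is broken. In the ubiquitin route the kinase PINK1 gathers on damaged mitochondria and starts their marking with ubiquitin chains, which the soluble adaptors OPTN (optineurin), CALCOCO2 (NDP52) and SQSTM1 (p62) bind. BNIP3 and BNIP3L are known as genes switched on by hypoxia, when the transcription factor HIF-1 binds short motifs near their start sites.

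Because HIF-1 signaling was the pathway the study took up, the stretches upstream of the members' start sites were read for the letters ACGTG and GCGTG on both strands, which are the core of the hypoxia response element. RefSeq windows (GRCh38.p14) of the 250 bases before a start were at hand for 7 of the 10 members, in 13 windows, and BNIP3L, PINK1 and FKBP8 were absent from the table. A match was found in 3 of the 13 windows, belonging to BNIP3, CALCOCO2 and BCL2L13, while 43.2% of the 35116 windows in the table held one. BNIP3 had 6 matches, a number reached or passed by 227 windows (0.646%). That cut is the BNIP3 count itself. Both strings hold the letters CG, and the share takes no account of the base composition of the windows. The first line below is the part of the BNIP3 window that lies outside annotated exons (minus strand, chr10:131982014-131982173, ending 91 bases before the start), and the second is the same part for CALCOCO2 (plus strand, chr17:48830785-48830987, ending 48 bases before the start). They are shown because BNIP3 is the most abundant member and had one of the 2 largest rises, and because CALCOCO2 is the only other member with a match outside exons. Capitals mark each match, with CACGT and CACGC being the same motifs on the opposite strand.
BNIP3: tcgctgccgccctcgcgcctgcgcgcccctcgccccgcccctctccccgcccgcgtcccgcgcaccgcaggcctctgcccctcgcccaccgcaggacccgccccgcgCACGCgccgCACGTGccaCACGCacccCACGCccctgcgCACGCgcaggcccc
CALCOCO2: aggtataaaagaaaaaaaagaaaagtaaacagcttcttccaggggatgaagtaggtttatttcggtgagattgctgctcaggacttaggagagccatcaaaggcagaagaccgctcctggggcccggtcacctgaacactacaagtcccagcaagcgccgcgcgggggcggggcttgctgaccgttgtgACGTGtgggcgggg
In BNIP3 the matches lay 143, 134, 133, 125, 116 and 104 bases before the start, and those at 134 and 133 are a single palindrome read on both strands. The CALCOCO2 match lay 61 bases before its start. The BCL2L13 match fell within exons and is not printed. The windows of FUNDC1, OPTN, PHB2 and SQSTM1 held none. A match or its absence in these windows is a description of letters and not of binding.

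Between 21888530 and 25711353 reads were counted on genes in a library. Genes with at least 1 count numbered 25972 to 26302 in untreated and 22438 to 25488 in r-CRMP2 libraries. The lowest number was in r-CRMP2 replicate 3, although that library had the most reads (25711353). The reason was not tested. Of the ovarian epithelial markers, KRT7, KRT8, KRT18 and MSLN were abundant, and WT1, CDH1 and CLDN3 had at most 5 counts in any library. PAX8 was at 4.06 CPM (counts scaled between libraries by TMM, described below) in untreated cells. Summed over each list, the ovarian epithelial markers lay at 3448 to 3561 CPM in untreated and 3572 to 3861 CPM in r-CRMP2 libraries (10 of 13 with at least 10 counts in every library), and the fibroblast markers at 613 to 686 and 538 to 562 CPM (10 of 12). The leukocyte and endothelial markers summed to 32.3 to 38.3 and 79.7 to 86.5 CPM (4 of 9), most of it from CD68, a lysosomal membrane protein, whereas PTPRC and CD3E had at most 4 counts in any library. The part of these shifts in the results was not tested. Groups were set against each other by edgeR's quasi-likelihood test, and its p-values were adjusted over 16222 genes by the Benjamini-Hochberg method (called "edgeR adjusted p" from here on), after TMM scaling, which sets the libraries to a common level from genes of middling change. Scaling mattered, since the median log2 fold change of all genes tested was -0.03 after TMM and -0.34 with library size alone, and the share of calls that were higher in r-CRMP2 was 48.4% and 20.4%. Values between libraries are therefore TMM-scaled CPM, and each change of a receptor is also given relative to the median of all genes under both scalings. Those relative values agree by construction, because a change of scaling shifts all genes by nearly the same amount. Their agreement is therefore no check on which scaling is right.

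Of the 10 receptors, 6 rose in r-CRMP2-treated cells (BNIP3, BNIP3L, FKBP8, PHB2, OPTN and CALCOCO2), 2 fell (FUNDC1 and BCL2L13), and PINK1 and SQSTM1 did not pass an edgeR adjusted p of 0.05. All 10 passed the filter on low counts. Across all genes tested, 58.2% were called in either direction, 28.2% higher and 30.1% lower, so most genes were called and the 8 called members of 10 have to be read against that share. The median log2 fold change of the 10 was 0.35, against -0.03 for all genes tested. With a log2 fold change above 1 also required, the count was 1 member, BNIP3L, beside 14.0% of all genes in either direction, 5.12% higher and 8.86% lower. The 3 treated libraries lay wholly above the 3 untreated ones in 6 members and wholly below them in 2, where the shares over all genes tested were 30.9% above, 33.3% below and 64.2% in either direction. When libraries were scaled by their totals alone, 4 receptors were higher and 4 lower, beside 13.4% of all genes higher and 52.1% lower. RNA here came from whole cultures, so that fewer cells expressing a gene and less of its RNA per cell cannot be told apart.

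**Figure D1:**
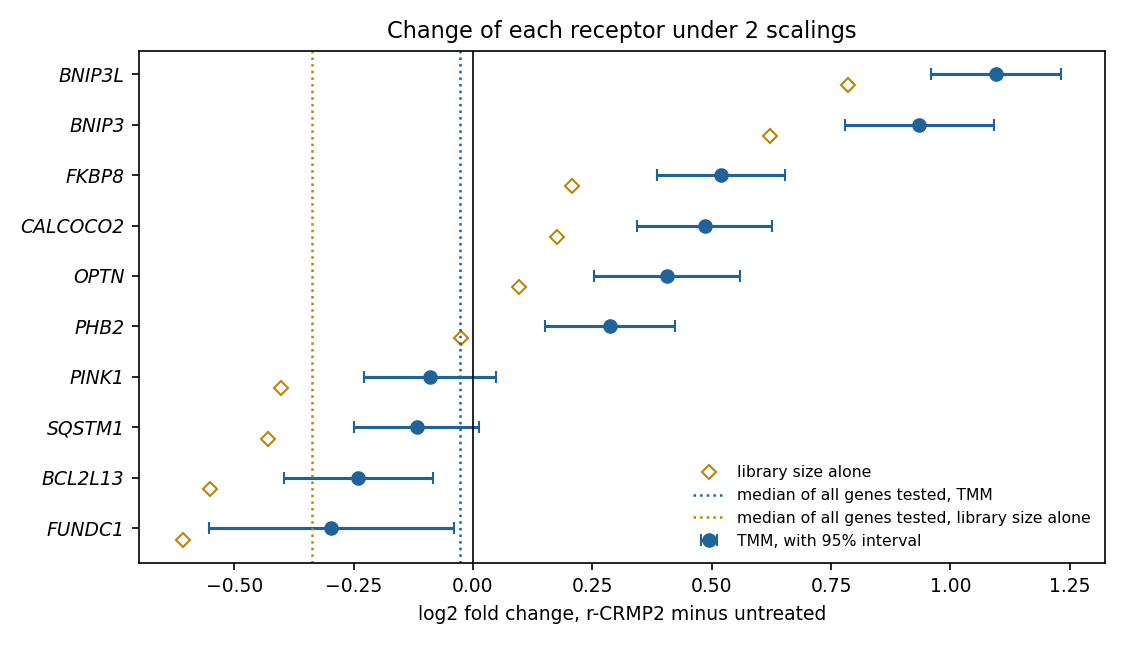
Log2 fold change of each receptor, r-CRMP2 minus untreated (3 libraries each). Filled circles with bars are the TMM-scaled estimates with 95% intervals, open diamonds the estimates with library size alone, and dotted lines the medians of all genes tested under each scaling; BNIP3L (1.10) and BNIP3 (0.93) lie farthest to the right, and each diamond sits to the left of its circle by about the distance between the dotted lines.

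BNIP3 and BNIP3L, the paired outer-membrane receptors, showed the 2 largest rises among the members. BNIP3 (hg19 chr10:133781187-133795517, minus strand) lay at 323, 299 and 268 CPM in untreated replicates 1, 2 and 3 and at 525, 610.2 and 565 CPM in r-CRMP2 replicates 1, 2 and 3. Every treated library was above every untreated one, and the gap between the groups was wider than the spread within either. The means were 297 ± 27.9 and 567 ± 42.5 CPM (SD, n = 3), a log2 fold change of 0.93 (SE 0.07, 95% interval 0.78 to 1.09, edgeR adjusted p = 3.76e-09). BNIP3L (hg19 chr8:26240523-26270645, plus strand), which also clears mitochondria from maturing red blood cells, lay at 171, 158 and 148 CPM in untreated and at 338, 336 and 346 CPM in r-CRMP2 libraries. The treated libraries lay close together and all stood above the untreated ones. Its mean went from 159 ± 11.6 to 339.8 ± 5.33 CPM (SD, n = 3), a log2 fold change of 1.10 (SE 0.06, 95% interval 0.96 to 1.23, edgeR adjusted p = 6.51e-11).

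Both genes were called in each of 13 alternative analyses, with a highest adjusted p of 3.11e-05 for BNIP3 and 9.30e-06 for BNIP3L (both from limma on TPM). With library size alone the log2 fold changes were 0.62 for BNIP3 and 0.79 for BNIP3L. Relative to the median of all genes they were 0.96 and 1.12 under either scaling. When the test asked for a change beyond 1.5-fold (edgeR glmTreat), BNIP3 (adjusted p = 2.03e-04) and BNIP3L (adjusted p = 5.76e-07) were the 2 members that passed. Without untreated replicate 1, the untreated library with the highest BNIP3 value, the BNIP3 log2 fold change was 1.00002. It thus only just crossed the threshold of 1, and 2 members were past both thresholds. Reads of the BNIP3 pseudogenes BNIP3P1 and BNIP3P5 numbered at most 21 in any library, with BNIP3P1 at most 0.234% of the BNIP3 counts.

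The ratio of BNIP3 to BNIP3L transcripts within a library, which does not depend on scaling, was 4.19, 4.21 and 4.01 in untreated and 3.46, 4.04 and 3.63 in r-CRMP2 libraries, as counts per length. The groups overlapped, since r-CRMP2 replicate 2 lay above untreated replicate 3. The means were 4.14 ± 0.109 and 3.71 ± 0.298 (SD, n = 3). On the log2 scale the difference was -0.16, which an exact two-sided permutation test did not separate from none (p = 0.2, where 0.1 is the smallest p that 3 against 3 allows).

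The other outer-membrane receptors moved in different directions. FKBP8, which anchors BCL2 family proteins at mitochondria and recruits LC3A, is a receptor that itself can leave mitochondria during mitophagy. FKBP8 (hg19 chr19:18642562-18654406, minus strand) lay at 251, 259 and 248 CPM in untreated and at 339, 387 and 361 CPM in r-CRMP2 libraries. All treated libraries were higher, with little spread among the untreated ones. The change was 0.52 on the log2 scale (SE 0.06, 95% interval 0.39 to 0.65, edgeR adjusted p = 1.03e-06), from 253 ± 5.82 to 363 ± 24.0 CPM (SD, n = 3). With library size alone it was 0.21 (edgeR adjusted p = 0.00367), and FKBP8 was called in 13 of 13 alternatives. Relative to the median of all genes it was 0.55 after TMM and 0.54 by library totals. The 2 antisense genes that overlap FKBP8 had at most 0.277% of its counts. For 1 of them, ENSG00000269191.1, the log2 fold change was 2.70 (1 to 5 reads in untreated and 10 to 23 in r-CRMP2 libraries, edgeR adjusted p = 3.69e-04). This gene lies wholly inside FKBP8, and the library kit named in the methods does not mark strand. Its few reads therefore cannot be told from reads of FKBP8.

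BCL2L13, taken to be the mammalian counterpart of the yeast receptor Atg32, fell slightly. BCL2L13 (hg19 chr22:18121350-18213621, plus strand) lay at 37.5, 39.0 and 41.0 CPM in untreated and at 34.8, 32.6 and 32.1 CPM in r-CRMP2 libraries. The groups did not overlap, although the gap between the closest libraries was small. Its log2 fold change was -0.24 (SE 0.07, 95% interval -0.40 to -0.08, edgeR adjusted p = 0.00941), and relative to the median of all genes it was -0.21 under either scaling. The call was lost without untreated replicate 3 (-0.20, edgeR adjusted p = 0.0581) and without r-CRMP2 replicate 3 (-0.21, edgeR adjusted p = 0.0524).

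FUNDC1, a receptor regulated by phosphorylation during hypoxia, was the least counted member. FUNDC1 (hg19 chrX:44382885-44402221, minus strand) had 280, 248 and 262 reads in untreated and 166, 180 and 170 reads in r-CRMP2 libraries. Scaled, these were 10.1, 10.1 and 9.58 CPM against 7.77, 9.10 and 7.40 CPM. The treated values were all lower, with r-CRMP2 replicate 2 close to the untreated range. The log2 fold change of -0.30 (SE 0.12, 95% interval -0.55 to -0.04) passed narrowly (edgeR adjusted p = 0.0446) and did not pass in 9 of 13 alternatives, 5 of which left out 1 library (adjusted p up to 0.176, edgeR). With library size alone it was -0.61 (edgeR adjusted p = 3.33e-04), and relative to the median of all genes it was -0.27 under either scaling.

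**Figure D2:**
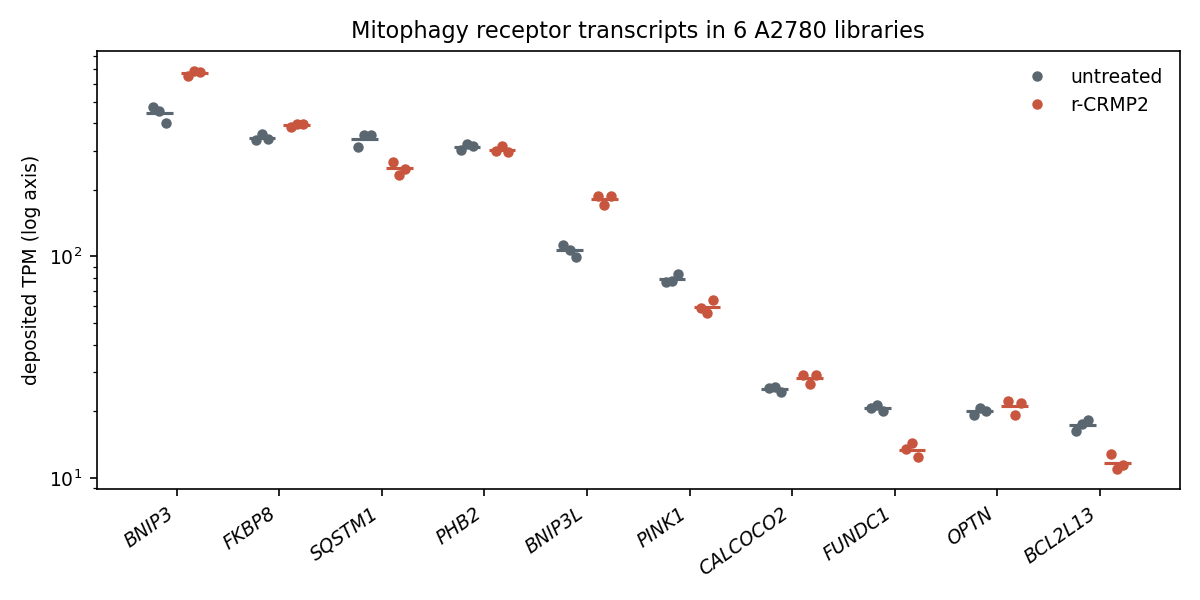
Deposited TPM of the 10 receptors in each of the 6 A2780 libraries, on a log axis, with the mean of each group as a bar; TPM is not TMM-scaled, so that a change here is on the library-size scale. BNIP3 is the highest member in every library (401 to 690.2 TPM), and BCL2L13 and FUNDC1 are the lowest in the treated ones.

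PHB2 (prohibitin 2) forms ring complexes in the inner mitochondrial membrane and serves as a receptor there. PHB2 (hg19 chr12:7074515-7079916, minus strand) lay at 182, 188 and 186 CPM in untreated and at 214, 246 and 218 CPM in r-CRMP2 libraries. The treated values were all higher, with r-CRMP2 replicate 2 standing above the other two. The log2 fold change was 0.29 with TMM (SE 0.07, 95% interval 0.15 to 0.42, edgeR adjusted p = 8.70e-04), and it was -0.026 with library size alone (edgeR adjusted p = 0.720) and -0.042 in limma on TPM (adjusted p = 0.429), both of which lower all genes alike. Relative to the median of all genes it was 0.31 under either scaling. Its partner in the ring, PHB1 (listed as PHB), moved the other way (177 to 144 CPM, log2 fold change -0.30, edgeR adjusted p = 3.98e-04). The small RNA gene SCARNA12 lies inside PHB2 on the same strand and had at most 1.69% of its counts.

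PINK1, the kinase that starts the ubiquitin route, did not pass the test. PINK1 (hg19 chr1:20959948-20978004, plus strand) lay at 84.9, 83.6 and 90.4 CPM in untreated and at 77.1, 79.8 and 86.3 CPM in r-CRMP2 libraries. The groups overlapped. The log2 fold change was -0.09 (SE 0.07, 95% interval -0.23 to 0.05, edgeR adjusted p = 0.254), and with library size alone it was -0.40 (edgeR adjusted p = 4.72e-05). Relative to the median of all genes it was -0.06 under either scaling. An antisense gene, PINK1-AS, overlaps PINK1 by 8855 bases, and its counts were as much as 60.0% of those of PINK1. The library kit named in the methods does not mark strand, so reads of the shared bases cannot be told apart. PINK1-AS itself had a log2 fold change of -0.06 (edgeR adjusted p = 0.552).

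Among the soluble adaptors, OPTN and CALCOCO2, the 2 that are most tied to mitophagy along the ubiquitin route, both rose. OPTN (hg19 chr10:13142082-13180276, plus strand) lay at 28.7, 30.2 and 29.5 CPM in untreated and at 39.6, 37.6 and 39.9 CPM in r-CRMP2 libraries. CALCOCO2 (hg19 chr17:46908350-46942607, plus strand) lay at 40.7, 39.9 and 38.3 CPM in untreated and at 54.9, 55.0 and 56.6 CPM in r-CRMP2 libraries. In both genes the groups were well apart and each was tight. The log2 fold change of OPTN was 0.41 (SE 0.07, 95% interval 0.25 to 0.56, edgeR adjusted p = 8.63e-05) and that of CALCOCO2 was 0.49 (SE 0.07, 95% interval 0.34 to 0.63, edgeR adjusted p = 4.89e-06). These calls leaned on the scaling, since with library size alone OPTN was at 0.10 (edgeR adjusted p = 0.283) and CALCOCO2 at 0.18 (edgeR adjusted p = 0.0329), and the CALCOCO2 call was lost in limma on TPM (0.16, limma adjusted p = 0.0727). Relative to the median of all genes, OPTN was at 0.43 and CALCOCO2 at 0.51 under either scaling.

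SQSTM1, the adaptor that also gathers ubiquitin-tagged protein aggregates and is itself degraded by autophagy, did not pass the test. SQSTM1 (hg19 chr5:179233388-179265078, plus strand) lay at 434, 480.1 and 480.4 CPM in untreated and at 439, 423 and 423 CPM in r-CRMP2 libraries. The groups overlapped, because untreated replicate 1 lay among the treated values. The log2 fold change was -0.12 (SE 0.06, 95% interval -0.25 to 0.01, edgeR adjusted p = 0.114). It passed at -0.17 without untreated replicate 1 (edgeR adjusted p = 0.0413) and at -0.43 with library size alone (edgeR adjusted p = 1.02e-05). Relative to the median of all genes it was -0.09 under either scaling. Its first 565 bases overlap MGAT4B on the opposite strand, whose counts were as much as 39.3% of those of SQSTM1 and which fell (log2 fold change -0.70, edgeR adjusted p = 8.32e-09). At its other end 813 bases overlap MRNIP, also on the opposite strand, which had at most 3.84% of the SQSTM1 counts and fell too (log2 fold change -0.24, edgeR adjusted p = 0.0322).

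Per length, the members spanned a wide range. In untreated cells BNIP3 stood first at 442 ± 37.6 TPM (SD, n = 3), followed by FKBP8 at 343 ± 11.6, SQSTM1 at 339.6 ± 24.2 and PHB2 at 313 ± 9.34 TPM. The ranges of FKBP8 and SQSTM1 overlapped, and their order is not settled, since SQSTM1 was the higher in untreated replicate 3 alone. Those of SQSTM1 and PHB2 overlapped too. Within each untreated library, however, SQSTM1 was above PHB2 (312 against 302, 355 against 321 and 352 against 315 TPM). BNIP3L (107 ± 6.65 TPM) and PINK1 (79.1 ± 3.58 TPM) came next, each apart from its neighbours. CALCOCO2 (25.3 ± 0.667 TPM), FUNDC1 (20.7 ± 0.646 TPM), OPTN (20.0 ± 0.777 TPM) and BCL2L13 (17.3 ± 0.969 TPM) were the low members, with FUNDC1 and OPTN overlapping. In r-CRMP2-treated cells the order was BNIP3 (673 ± 19.9 TPM), FKBP8 (392 ± 8.25 TPM), PHB2 (304 ± 9.95 TPM), SQSTM1 (249.7 ± 16.0 TPM), BNIP3L (182 ± 9.70 TPM) and PINK1 (59.3 ± 4.14 TPM), with no overlap between neighbours. CALCOCO2 (28.3 ± 1.43 TPM) and OPTN (21.1 ± 1.59 TPM) followed, above FUNDC1 (13.4 ± 0.974 TPM) and BCL2L13 (11.7 ± 0.972 TPM), whose ranges overlapped. Within each r-CRMP2 library FUNDC1 was nonetheless above BCL2L13. SQSTM1 thus went from above PHB2 within every untreated library to below PHB2 within every r-CRMP2 library. Against FKBP8, SQSTM1 went from overlapping to standing below, as FUNDC1 did against OPTN.

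Within the summed TPM of the 10 genes, which ran from 1672 to 1754 in untreated and from 1925 to 1944 in r-CRMP2 libraries, BNIP3 and BNIP3L together held 34.7%, 31.9% and 29.9% in untreated replicates and 43.6%, 44.5% and 44.5% in r-CRMP2 replicates. The treated libraries were all higher, and this share does not depend on the scaling between libraries. BNIP3 alone went from 25.9 ± 2.01% to 34.8 ± 0.917% and BNIP3L from 6.25 ± 0.371% to 9.42 ± 0.510% (SD, n = 3). SQSTM1 went from 19.9 ± 1.37% to 12.9 ± 0.867%, PHB2 from 18.3 ± 0.492% to 15.7 ± 0.530% and PINK1 from 4.64 ± 0.297% to 3.06 ± 0.205% (SD, n = 3). The shares make up a fixed whole, so larger BNIP3 and BNIP3L shares lower the others. A lower share is therefore not a fall in the RNA of that gene. PHB2 lost share although its TMM-scaled log2 fold change was 0.29, and PINK1 and SQSTM1 did not pass the test. The share of FKBP8 (20.1 ± 0.294% and 20.3 ± 0.355%) overlapped between the groups. FUNDC1 went from 1.21 ± 0.0105% to 0.693 ± 0.0519% of the sum.

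**Figure D3:**
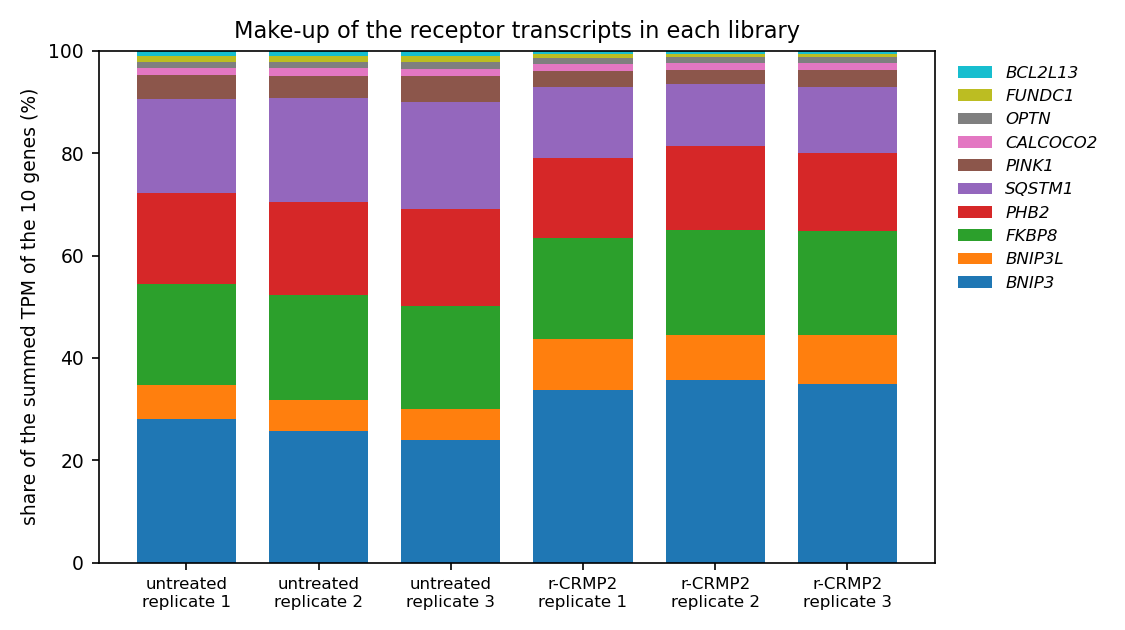
Share of each receptor in the summed deposited TPM of the 10 genes (%), stacked to 100, for each of the 3 untreated and 3 r-CRMP2 libraries. The BNIP3 and BNIP3L blocks at the bottom together reach 29.9% to 34.7% in untreated and 43.6% to 44.5% in r-CRMP2 libraries, and the SQSTM1 block is thinner in the latter.

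The 5 genes with a pattern most like that of BNIP3 over the 6 libraries, among 9393 genes with a mean of at least 10 CPM, were ENSG00000272870.1, SAR1A, XAB2, MT1E and MRPS6, with a Pearson r of log2 CPM from 0.9989 to 0.9998. The 6 points fall into the 2 groups, and 2860 of the 9393 genes had an r over 0.9, so that this likeness describes little more than a rise in r-CRMP2. One of the 5, MT1E, a metallothionein, rose by 1.59 on the log2 scale (from 293 to 884 CPM, edgeR adjusted p = 7.26e-11), and its counts are uncertain because metallothionein genes are near-identical.

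Genes for the proteins that the receptors bind were read next. Of the 6 LC3 and GABARAP genes tested, 4 rose and none fell (median log2 fold change 0.44), and with library size alone 2 rose and none fell. Over all genes tested, 28.2% rose and 30.1% fell, or 13.4% and 52.1% with library size alone. MAP1LC3B, the most used marker of autophagosomes, went from 45.2 ± 3.01 to 73.4 ± 2.45 CPM (SD, n = 3, log2 fold change 0.70, edgeR adjusted p = 6.47e-08), but it shares sequence with MAP1LC3B2, which makes its counts uncertain. GABARAP went from 95.3 ± 1.53 to 143 ± 17.1 CPM (SD, n = 3, log2 fold change 0.59, edgeR adjusted p = 1.64e-06). GABARAPL1 (0.30) and GABARAPL2 (0.25) also rose. MAP1LC3C had at most 1 count in any library and was not tested.

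In the machinery that builds the autophagosome, 11 of 29 genes rose and 10 fell, beside 28.2% and 30.1% of all genes, and with library size alone 8 rose and 16 fell, beside 13.4% and 52.1%. The median of 0.06 lay between -4.07e-04 (without untreated replicate 3) and 0.097 (without r-CRMP2 replicate 3) when 1 library was left out. ATG14, which directs the lipid kinase complex to the site of formation, went from 31.3 ± 3.22 to 78.9 ± 2.61 CPM (SD, n = 3, log2 fold change 1.33, edgeR adjusted p = 4.79e-11). ATG12 (0.93), part of the conjugate that lipidates LC3, and ULK1 (0.82), the kinase that starts autophagy and phosphorylates FUNDC1, also rose. ATG10, the enzyme that joins ATG12 to ATG5, fell from 3.73 ± 0.560 to 1.74 ± 0.434 CPM (SD, n = 3, log2 fold change -1.11, edgeR adjusted p = 2.69e-04).

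Of the genes around PINK1 and the ubiquitin route, 10 of 22 rose and 6 fell, with a median of 0.13, beside 28.2% and 30.1% of all genes. With library size alone 2 rose and 12 fell, beside 13.4% and 52.1%. The outer-membrane proteins RHOT1 (0.56), which tethers mitochondria to motors, and VDAC1 (0.54), a channel, rose, as did TOMM7 (0.46), which holds PINK1 at the outer membrane. OMA1, an inner-membrane protease that can cleave PINK1, fell from 6.87 ± 0.489 to 3.93 ± 0.0350 CPM (SD, n = 3, log2 fold change -0.80, edgeR adjusted p = 1.00e-04).

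Of 18 partners and regulators of the receptors, 9 rose and 4 fell, with a median of 0.20, beside 28.2% and 30.1% of all genes. With library size alone 5 rose and 7 fell, beside 13.4% and 52.1%. PPTC7, a mitochondrial phosphatase that promotes turnover of the BNIP3 and BNIP3L proteins, went from 51.3 ± 2.92 to 119 ± 8.13 CPM (SD, n = 3, log2 fold change 1.22, edgeR adjusted p = 4.18e-11). FOXO3, a transcription factor that drives BNIP3 and BNIP3L in muscle, went from 39.7 ± 0.930 to 87.1 ± 6.80 CPM (SD, n = 3, log2 fold change 1.13, edgeR adjusted p = 1.31e-10). BCL2, the survival protein that BNIP3 and FKBP8 bind, fell (-0.80, from 10.6 to 6.06 CPM, edgeR adjusted p = 3.68e-05).

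A list of 16 other selective autophagy receptors also held mitochondrial proteins outside the 10 members, such as MCL1 and PHB1. Of the 16 genes, 6 rose and 5 fell, beside 28.2% and 30.1% of all genes. With library size alone 2 rose and 9 fell, beside 13.4% and 52.1%. The median of 0.11 lay between 0.066 (without untreated replicate 3) and 0.165 (without untreated replicate 1) when 1 library was left out. RETREG1 (FAM134B), the receptor for endoplasmic reticulum sheets, fell from 14.2 ± 2.95 to 2.98 ± 0.469 CPM (SD, n = 3, log2 fold change -2.25, edgeR adjusted p = 1.50e-09). MCL1, an outer-membrane survival protein that can bind LC3, went from 417 ± 15.6 to 1202 ± 126 CPM (SD, n = 3, log2 fold change 1.53, edgeR adjusted p = 4.81e-12). STBD1 (0.92), which links glycogen to autophagy, rose and WDFY3 (-0.50), a scaffold for aggregates, fell.

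Of 18 genes of mitochondrial fission and fusion, 7 rose and 7 fell, with a median of -0.08, beside 28.2% and 30.1% of all genes. With library size alone 1 rose and 11 fell, beside 13.4% and 52.1%. The 4 genes named for the size of their change all fell: MSTO1 (-1.25), whose counts are uncertain because a near-identical pseudogene exists, OMA1, MIEF1 (-0.79), which recruits the fission enzyme DNM1L, and SLC25A46 (-0.76), an outer-membrane protein of fission. Of 27 genes of the lysosome and of autophagosome fusion, 13 rose and 4 fell, beside 28.2% and 30.1% of all genes, and with library size alone 8 rose and 10 fell, beside 13.4% and 52.1%. The median of 0.15 lay between 0.11 (without untreated replicate 2) and 0.23 (without untreated replicate 1) when 1 library was left out. The protease CTSB went from 342 ± 4.28 to 655 ± 26.3 CPM (SD, n = 3, log2 fold change 0.94, edgeR adjusted p = 2.08e-10), TPP1 (0.75) and PSAP (0.68) rose as well, and ATP6V0A1, a subunit of the proton pump, fell (-0.93, edgeR adjusted p = 1.54e-08). Without untreated replicate 3 the number that fell was 2.

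The RNA of 25 nuclear genes for mitochondrial proteins, listed as mitochondrial content, was read beside the receptors. The amount of mitochondria itself was not measured, and RNA of these genes does not give it. Of these 8 rose, 5 fell and 12 did not pass, beside 28.2% and 30.1% of all genes that rose and fell, and with library size alone 5 rose and 18 fell, beside 13.4% and 52.1%. The median of 0.01 lay between -0.044 (without r-CRMP2 replicate 2) and 0.047 (without r-CRMP2 replicate 1) when 1 library was left out. VDAC2 (0.87), TOMM20 (0.64), SDHA (0.62) and VDAC1 were among those that rose. SDHA, a subunit of respiratory complex II, went from 730.1 ± 33.2 to 1119 ± 31.5 CPM (SD, n = 3, edgeR adjusted p = 8.72e-08). HSPD1, the matrix chaperonin, lay at 678 and 668 CPM (log2 fold change -0.02, edgeR adjusted p = 0.782). Without r-CRMP2 replicate 3 the number that fell was 3.

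**Figure D4:**
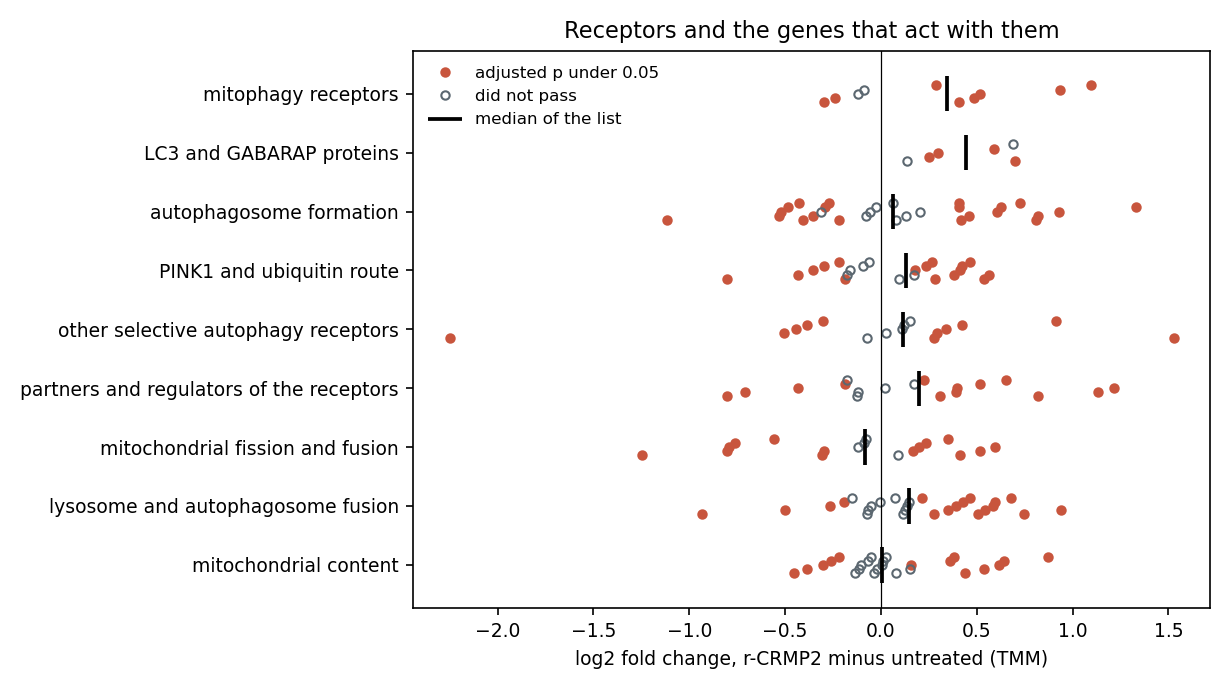
Log2 fold change (r-CRMP2 minus untreated, TMM-scaled) of every gene tested in the 10 receptors and 8 lists of genes that act with them. Filled circles had an edgeR adjusted p under 0.05, open circles did not, and the black bar is the median of each list, which is 0.35 for the receptors, 0.44 for the LC3 and GABARAP genes and between -0.08 and 0.20 for the other 7 lists.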

How the data were processed

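Polyadenylated RNA of 6 A2780 libraries (3 untreated, 3 r-CRMP2) was sequenced in pairs by the study. The authors deposited, for each library and 44591 genes, the read count without normalization and TPM, which follows from the count and the deposited gene length (largest difference 4.72e-06). The submitters' processing notes name FastQC, HISAT2, DESeq2 and the build hg19; the counting tool, annotation and strand setting are not given in the sources used here, and reads shared by overlapping or near-identical genes may be split or lost.

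Counts of all genes were fitted in R 4.3.3 with edgeR 4.0.16 (quasi-likelihood test after TMM and filterByExpr, group as the only term), with Benjamini-Hochberg adjustment over 16222 genes and thresholds of 0.05 and, where stated, a log2 fold change of 1. Standard errors are the fold change over the root of the F statistic. All 10 members are named, and from each other list up to 4 called genes of largest change, with the 5 genes most like BNIP3 and overlapping or like-named genes whose counts bear on a member; markers, PHB1, MAP1LC3B2, MAP1LC3C and HSPD1 were named after their values were seen. The members and lists were chosen with earlier results of these data known. Promoter windows came from RefSeq (GRCh38.p14).

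On counts simulated for r-CRMP2 against untreated, 97 of 100 genes with a true log2 change of 0.5 and 100 of 100 with a true change of 1 were called, with 5 false calls among 15966 unchanged genes. The simulation changed only those genes, evenly up and down, with a single dispersion for all genes. It held no shift like that seen between scalings, and in the data 58.2% of genes were called. Its rate of false calls therefore does not carry over to these data. Each result was recomputed leaving out every library in turn, with the replicate number as a block, in DESeq2 1.42.0, in limma 3.58.1 on log2 of TPM plus 0.1, scaled by library size alone or by RLE, with all genes of 1 count or more, with genes of 10 or more counts in each library, and against a minimum fold of 1.5.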

Additional observations from a re-analysis of the deposited data

How the results depend on the processing

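The 6 rises, 2 falls and 1 member past both thresholds were recomputed under each alternative. The number of receptors that fell was 1 with DESeq2, with RLE size factors, with no low-count filter and with the replicate block, 4 with library size alone and 4 in limma on TPM, and ran from 0 to 2 when 1 library was left out. The number that rose was 3 in limma on TPM. The number past both thresholds was 0 with library size alone and 0 in limma on TPM. In the test against a 1.5-fold change it was 2. When 1 library was left out it was 1 to 2, with BNIP3 at 1.00002 where it was 2. PHB2 reversed, to -0.026 with library size alone and -0.042 in limma on TPM, both of which lower all genes alike. Relative to the median of all genes it was 0.31 under TMM and under library totals. That agreement is fixed by construction, so the direction of PHB2 depends on the scaling chosen. Of 130 estimates for single members, 109 kept direction and side of the threshold, 14 lost and 5 gained the call, and 2 reversed.

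Under library size alone, and in limma on TPM, the list counts moved as the median of all genes did (-0.34 and -0.35), and 13.4% and 12.5% of all genes rose while 52.1% and 51.5% fell. For LC3 and GABARAP genes 2 and 2 rose. For autophagosome formation 16 and 16 fell, and 7 rose in limma. For the genes around PINK1 2 and 2 rose while 12 and 13 fell. For other receptors 2 and 2 rose while 9 and 8 fell. For partners and regulators 5 and 5 rose while 7 and 7 fell. For fission and fusion 1 and 1 rose while 11 and 11 fell. For the lysosome 8 and 7 rose while 10 and 12 fell. For mitochondrial content 5 and 5 rose while 18 and 18 fell. Leaving out 1 library gave 2 to 4 lysosomal genes and 3 to 7 mitochondrial content genes that fell.

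Same-numbered libraries did not deviate together (correlations of -0.02, 0.0038 and -0.03 across genes, and no library correlated best with its own number). No pairing by number was seen, although so few libraries cannot exclude a weak one and the labels do not state the design. With the replicate block 4456 genes were higher and 4774 lower, against 4574 and 4875 without it. The BNIP3 to BNIP3L difference was -0.16 with the block. That value is no check, because a block cannot change the difference when every replicate number occurs in both groups. When 1 library was left out, the difference was -0.22 to -0.11. FUNDC1 had 166 to 280 reads in a library, and recovery at that depth was not tested.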
